A study of Homo sapiens with 12 samples.

Results

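The genes described here encode the proteasome: its core, its regulatory caps and the chaperones that assemble it. Members were the probe sets whose only annotated symbol begins with PSMA, PSMB, PSMC, PSMD, PSME, PSMF or PSMG followed by a digit, with pseudogenes left out and each gene represented by its brightest probe set over the 12 arrays. The rule took 50 of the 19775 symbols on the array, and 42 of these encode a subunit, an activator, the inhibitor or an assembly chaperone. Of the 42, 41 were kept by a filter on low signal (a log2 intensity of at least 6 on at least 4 arrays), among 10157 genes kept in all, and each of the 41 lay at or above 6 on all 12 arrays. The exception was PSMA8, an alpha subunit of the testis, which was below 6 on every array, between 2.81 and 3.31. The 41 comprised 6 of the alpha ring, 7 of the constitutive beta ring, 3 inducible beta subunits, 5 base ATPases, 3 other base subunits, 6 of the lid, 4 activators or inhibitors and 7 assembly chaperones. PSMA6, PSMB11, PSMC5, PSMD7, PSMD13 and PSME2 were not analysed here. The other 8 symbols name 2 proteins that are not subunits and 6 non-coding transcripts, and they are reported apart.

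The proteasome degrades proteins marked with ubiquitin. Its core is a barrel of stacked rings: the outer alpha rings form the gate, and the inner beta rings carry the cleaving sites. A regulatory particle sits on the barrel, and its base holds a ring of ATPases that unfold the substrate together with large scaffold and receptor subunits. The lid of that particle removes the ubiquitin chain. Other caps, encoded by the PSME genes, open the gate without ATP, and dedicated chaperones put the rings together. Subunits are made in matched amounts, and in mammalian cells many of their genes are switched on together by the transcription factor NFE2L1 when proteasome activity is short.

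RNA came from MCF10A, a line of human mammary epithelial cells that is usually described as non-tumorigenic, although its origin is labelled as breast cancer. Cells were wild type (WT) or had eIF4G1, the scaffold of the cap-binding initiation complex, silenced by a hairpin RNA under doxycycline control, and either genotype was mock-treated or irradiated with 10 Gy. Each of the 4 conditions gave 1 array of light polysomes (LMW), 1 of heavy polysomes (HMW) and 1 of total RNA (Total). Ribosome numbers are stated for unirradiated WT cells alone, where LMW covers 1 to 3 ribosomes and HMW 4 and upwards. The sources used here do not say whether WT cells carried a hairpin or received doxycycline, nor whether the knockdown is a clone. Because nothing says that arrays came from separate cultures, p-values measure no more than how these arrays spread, which may be technical. In comparisons of preparations the 4 pairs are the 4 conditions, so their spread also holds differences of genotype and treatment. In Total RNA, EIF4G1 stood at 1028 in WT mock, 864 in WT 10 Gy, 163 in knockdown mock and 176 in knockdown 10 Gy (linear intensity), so the knockdown held 15.9% of the WT signal without irradiation and 20.4% with it. The basal epithelial markers KRT5, KRT14, EGFR and ITGB4 were at or above a log2 intensity of 6 on 12 of 12 arrays, and CDH1 on 10. Of the markers of other cells, PTPRC, CD3E, PECAM1, CDH5, COL3A1, PDGFRA and PGR were below 6 on all 12 arrays, whereas GATA3 and ERBB2 reached it on 12, COL1A1 on 11, CD14 on 10 and ESR1 on 6. Values below are log2 intensities per probe set. They are relative to the other mRNAs on an array, carry no correction for transcript length, and are compared between arrays but never between genes.

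Many proteasome mRNAs were over-represented on polysomes relative to total RNA, and few were under-represented. In LMW against Total, 21 of the 41 genes were higher (51.2%) and 1 was lower (limma, adjusted p under 0.05, 4 matched pairs), where 28.5% of all genes tested were higher and 28.1% lower. The median difference of the 41 was 0.38 on the log2 scale, against 0.01 for all genes. In HMW against Total, 17 were higher (41.5%) and 2 lower, where 17.4% of all genes were higher and 18.6% lower, with a median of 0.35 against 0.03. In HMW against LMW, 6 were higher (14.6%) and 11 lower (26.8%), where 19.6% of all genes were higher and 21.1% lower, and the median was -0.11 against -0.06. The last shares lie near those of all genes, so this comparison does not set the 41 apart as a group, and what follows turns on the single genes. These comparisons share arrays with each other and are given side by side. The count in HMW against Total fell without either irradiated pair. With WT 10 Gy left out it was 3 higher, and with knockdown 10 Gy left out 10 higher. In both cases 0 were lower, as without the knockdown mock pair. A left-out pair also leaves fewer residual degrees of freedom, whose part in the lost calls was not tested. Shares of all genes are not given for the fits with a pair left out. In LMW against Total, 13 were higher and 2 lower without the knockdown 10 Gy pair, and 14 and 2 without the knockdown mock pair. In HMW against LMW, 1 was higher and 5 lower without the WT mock pair, 4 were lower without the knockdown mock pair and 7 without the knockdown 10 Gy pair. Without the condition as a block, the counts for HMW against LMW were 0 and 0, as against 55 higher and 0 lower over all genes.

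**Figure D1:**
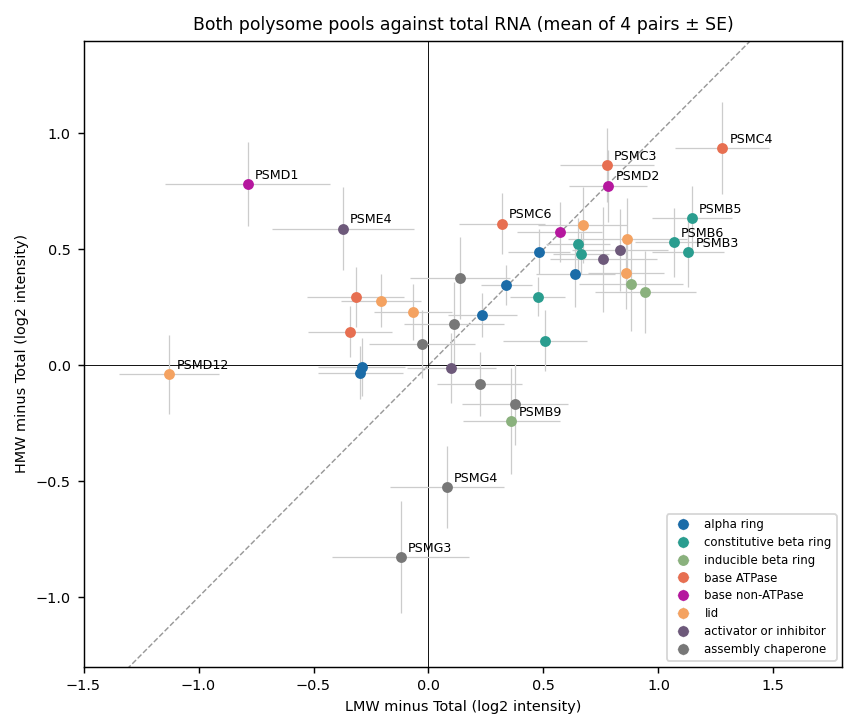
Mean difference of LMW from Total (horizontal axis) and of HMW from Total (vertical axis), both in log2 intensity, for the 41 genes; bars are standard errors over 4 pairs, and the dashed line marks equal differences. Both axes use the same Total arrays. PSMC4 lies farthest to the upper right (1.28 and 0.94), PSMD12 farthest to the left (-1.13) and PSMG3 lowest (-0.83).

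Promoters were searched for the sites that such co-regulated genes are known for. RefSeq promoter windows (GRCh38.p14, 250 bases before to 50 after the start) were matched for 36 of the 42 genes. PSMA7, PSMB1, PSMB6, PSMB7, PSMD4 and PSMG3 had no entry. The antioxidant response element that NFE2L1 and its relatives bind was searched as TGACNNNGC on either strand, and 12 of the 36 promoters (33.3%) held it, against 13.6% of 27305 promoters. The box CCAAT, on either strand, was in 16 of 36 (44.4%) and in 35.7% of all. A match is a description of these letters, not a bound site. Shown are 4 matches on the coding strand upstream of the start, with the element in capitals, chosen after their values were seen, because the comparisons below turn on these genes.
PSMB3 (chr17:38752622-38752660, plus strand): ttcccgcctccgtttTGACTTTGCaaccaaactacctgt
PSMD12 (chr17:67366719-67366757, minus strand): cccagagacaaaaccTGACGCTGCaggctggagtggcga
PSMD3 (chr17:39980755-39980793, plus strand): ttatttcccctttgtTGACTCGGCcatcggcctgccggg
PSME1 (chr14:24136093-24136131, plus strand): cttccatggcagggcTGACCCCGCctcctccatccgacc
PSMB3 was among the genes most raised on light polysomes and PSMD12 was the lowest there, and both windows hold the element. Among the kept genes with a window, the median LMW minus Total difference was 0.18 for the 12 with the element and 0.51 for the 23 without it. A link between the element and the polysome values was not tested.

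The alpha ring gave no call between the polysome pools. None of its 6 genes passed the test in HMW against LMW (limma, adjusted p from 0.0920 for PSMA5 to 0.956 for PSMA7), and their median difference was 0.01. Single genes went both ways. PSMA3 was higher in HMW in every condition, by 0.13 to 0.45, and its HMW arrays lay above its LMW arrays without overlap. PSMA5 was lower in HMW in every condition, with values from -0.39 to -0.19. PSMA7 gave 12.97 in WT mock, 12.81 in WT 10 Gy, 13.01 in knockdown mock and 12.83 in knockdown 10 Gy in Total. In LMW it read 13.20, 13.17, 13.32 and 13.28 in the same order of conditions, which is kept below, and in HMW 13.17, 13.23, 13.24 and 13.34. The polysome arrays thus lay above every Total array, without overlap, and the pools lay within each other's range. PSMA7 was higher than Total by 0.34 ± 0.11 (SE, n = 4 pairs, adjusted p = 0.0307) in LMW and by 0.35 ± 0.09 (adjusted p = 0.0175) in HMW. PSMA2, another subunit of the ring, was higher by 0.48 ± 0.14 in LMW (adjusted p = 0.0171) and by 0.49 ± 0.10 in HMW (adjusted p = 0.00732). PSMA5 passed in LMW alone, by 0.64 ± 0.17 (adjusted p = 0.0138), with 0.39 ± 0.14 in HMW (adjusted p = 0.0606). For PSMA1 the differences were 0.23 in LMW and 0.22 in HMW, and neither passed. PSMA3 and PSMA4 had values below 0 in both pools (-0.29 and -0.30 in LMW, -0.01 and -0.03 in HMW), which did not pass.

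The constitutive beta ring, which includes the cleaving subunits, moved together against Total. All 7 genes were higher in LMW than in Total, and 6 of 7 were higher in HMW than in Total. All 7 had a mean below 0 in HMW against LMW, as did 5467 of all 10157 genes, and 4 of the 7 passed the test there (PSMB2, PSMB3, PSMB5 and PSMB6). PSMB5, the chymotrypsin-like subunit, read 11.17, 11.18, 11.22 and 11.13 in Total. In LMW it read 12.77, 12.16, 12.21 and 12.13, and in HMW 12.22, 11.71, 11.61 and 11.70. Every LMW and HMW array was above every Total array, and within each condition the heavy pool lay between light and total, while WT mock was the highest array of either pool. LMW exceeded Total by 1.14 ± 0.17 (adjusted p = 0.00197), a 2.21-fold difference, HMW exceeded Total by 0.64 ± 0.14 (adjusted p = 0.0116), and HMW lay -0.51 ± 0.10 from LMW (adjusted p = 0.00763).

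PSMB3, a non-cleaving subunit of the ring, had the same order in all 4 conditions. Its Total values were 11.60, 11.50, 11.85 and 11.67. Its LMW values were 13.07, 12.66, 12.67 and 12.73, and its HMW values 12.60, 11.998, 12.01 and 11.97. No LMW array fell to the level of any HMW array or of any Total array. The differences were 1.13 ± 0.16 for LMW against Total (adjusted p = 0.00155), 0.49 ± 0.15 for HMW against Total (adjusted p = 0.0369) and -0.64 ± 0.10 for HMW against LMW (adjusted p = 0.00449). PSMB6, the caspase-like subunit, was close to it with 1.07, 0.53 and -0.54, all past the test. PSMB7, the trypsin-like subunit, was higher than Total by 0.65 in LMW and 0.52 in HMW, and its HMW to LMW difference of -0.13 ± 0.11 did not pass (adjusted p = 0.365). PSMB4 was higher by 0.66 and 0.48 and PSMB1 by 0.48 and 0.30, again without a call between the pools. PSMB2 was higher in LMW (0.51 ± 0.18, adjusted p = 0.0424), had 0.11 in HMW against Total (adjusted p = 0.543) and was lower in HMW than in LMW (-0.40 ± 0.12, adjusted p = 0.0352). The calls of PSMB3, PSMB5 and PSMB6 in HMW against LMW held when any 1 condition was left out.

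The inducible beta subunits replace the cleaving subunits in the immunoproteasome that interferon induces: PSMB8 takes the place of PSMB5, PSMB9 that of PSMB6 and PSMB10 that of PSMB7. All 3 were lower in HMW than in LMW in 4 of 4 pairs, and the 4 HMW arrays lay below the 4 LMW arrays without overlap for each of them. PSMB10 read 8.07, 7.89, 8.58 and 8.32 in Total, 9.20, 8.70, 9.29 and 9.42 in LMW, and 8.54, 8.35, 8.60 and 8.63 in HMW. Its light-pool arrays stood above all others, and its heavy-pool arrays overlapped with Total. PSMB10 was lower in HMW than in LMW by -0.63 ± 0.14 (adjusted p = 0.0117), PSMB9 by -0.60 ± 0.17 (adjusted p = 0.0291) and PSMB8 by -0.53 ± 0.13 (adjusted p = 0.0179). Against Total, PSMB10 (0.94) and PSMB8 (0.88) were higher in LMW and none of the 3 passed in HMW, where the values were 0.32, 0.35 and, for PSMB9, -0.24. PSMB9 lay close to the filter level on all arrays, between 6.42 and 7.57.

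**Figure D2:**
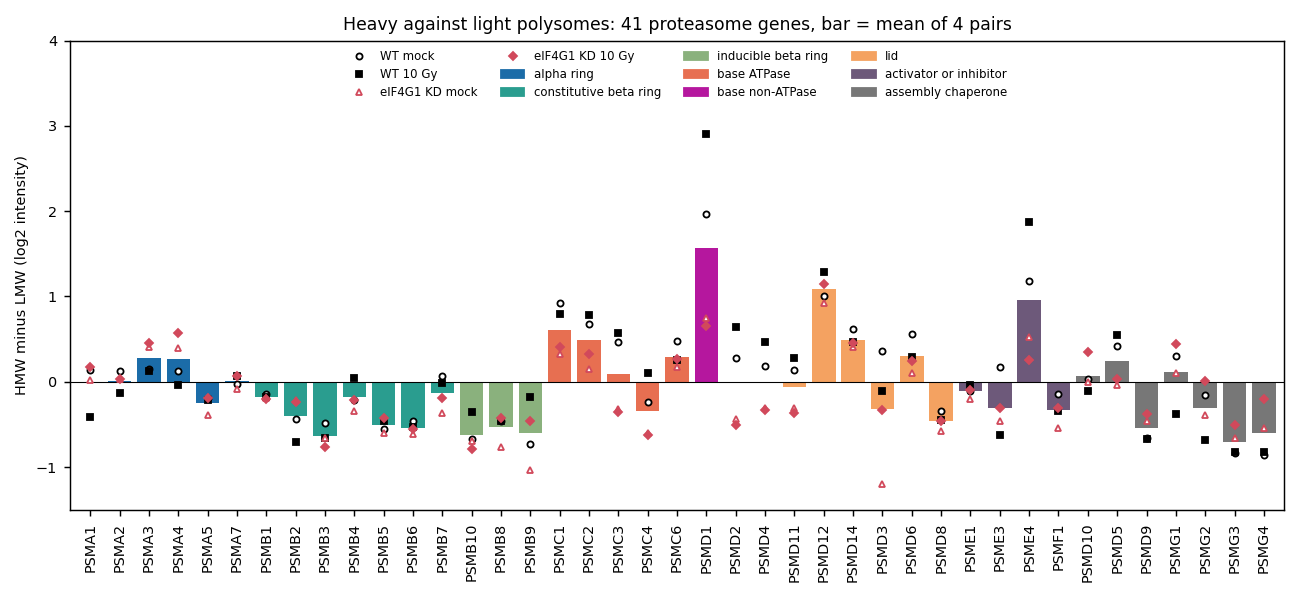
HMW minus LMW (log2 intensity) for the 41 genes, coloured by class; bars are means of 4 pairs and symbols are the single pairs (open symbols mock, filled symbols 10 Gy, black WT, red knockdown). The 10 beta ring bars lie below 0, between -0.64 and -0.13, and PSMD1 (1.57), PSMD12 (1.09) and PSME4 (0.96) stand highest.

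The base ATPases, which form the unfolding ring, did not move together. PSMC1 and PSMC2 were higher in HMW than in LMW, by 0.61 ± 0.14 (adjusted p = 0.0146) and 0.49 ± 0.14 (adjusted p = 0.0290), and neither passed against Total in either pool. PSMC1 read 11.00, 10.90, 11.13 and 11.04 in Total, 10.12, 10.59, 11.13 and 10.97 in LMW, and 11.04, 11.38, 11.45 and 11.38 in HMW. In each condition the heavy array was the highest and the light array the lowest, and both WT light arrays were below all others. PSMC3 and PSMC4 took another course and were higher than Total in both pools. For PSMC4 the Total arrays read 9.95, 9.80, 10.35 and 10.20, the LMW arrays 11.71, 10.85, 11.50 and 11.35, and the HMW arrays 11.47, 10.95, 10.91 and 10.73. All 8 polysome arrays thus lay above all 4 Total arrays. Its differences of 1.28 ± 0.20 in LMW (adjusted p = 0.00229, 2.42-fold) and 0.94 ± 0.20 in HMW (adjusted p = 0.00986, 1.92-fold) were the largest of the 41 genes in either comparison. PSMC3 was higher by 0.78 ± 0.20 (adjusted p = 0.0131) and 0.86 ± 0.16 (adjusted p = 0.00583). PSMC6 passed in HMW against Total alone, with 0.61 ± 0.13 (adjusted p = 0.0102) against 0.32 ± 0.19 in LMW (adjusted p = 0.170).

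The other base subunits are PSMD1 and PSMD2, the large scaffolds that dock ubiquitin receptors, and PSMD4, a ubiquitin receptor itself. All 3 were higher in HMW than in Total, by 0.78, 0.77 and 0.57. PSMD1 had the largest difference of the 41 between the pools, 1.57 ± 0.37 (adjusted p = 0.0154, 2.96-fold). PSMD1 read 10.59, 10.47, 10.51 and 10.46 in Total, 8.86, 8.86, 10.54 and 10.60 in LMW, and 10.83, 11.77, 11.29 and 11.26 in HMW. The Total arrays hardly differed, and both WT light arrays lay far below every other array of the gene. PSMD1 is therefore taken up again with the knockdown. PSMD2 and PSMD4 were higher than Total in LMW as well, by 0.78 and 0.57, and differed between the pools by -0.01 ± 0.20 and 0.00 ± 0.16, means over WT pairs above 0 and knockdown pairs below 0.

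**Figure D3:**
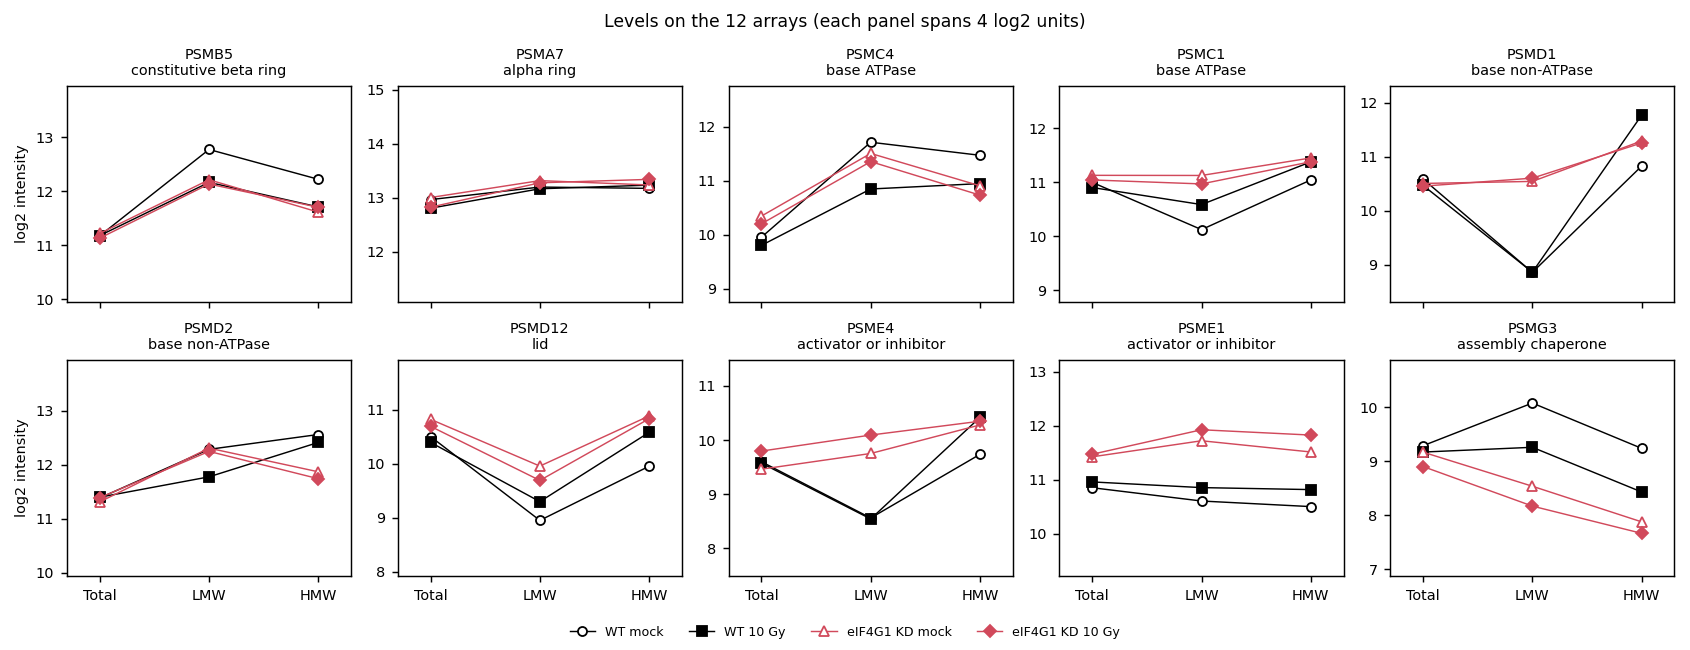
Log2 intensity of 10 genes on all 12 arrays, by preparation; lines join the arrays of 1 condition (black WT, red knockdown, open symbols mock, filled symbols 10 Gy), and all panels span the same height on the log2 axis at different levels. PSMB5 peaks in LMW in all 4 conditions, PSMD12 dips there in all 4, and PSMD1 and PSME4 dip there in WT only.

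The lid held genes at both ends. PSMD12, a scaffold subunit of the lid, was the only member lower in LMW than in Total and was higher in HMW than in LMW. It read 10.50, 10.39, 10.82 and 10.69 in Total, 8.95, 9.30, 9.95 and 9.69 in LMW, and 9.95, 10.58, 10.88 and 10.83 in HMW. All 4 light arrays lay below all 4 Total arrays, the heavy arrays overlapped with Total, and WT mock was the lowest array in both pools. The difference was -1.13 ± 0.22 for LMW against Total (adjusted p = 0.00401), 1.09 ± 0.13 for HMW against LMW (adjusted p = 0.00264, 4 of 4 pairs) and -0.04 ± 0.17 for HMW against Total (adjusted p = 0.866). A second PSMD12 probe set gave -1.47, 0.85 and -0.62 for the same comparisons. PSMD14, the deubiquitinase of the lid, was also higher in HMW than in LMW, by 0.49 ± 0.10 (adjusted p = 0.00960). PSMD8 was lower there, by -0.46 ± 0.10 (adjusted p = 0.0103), and higher in LMW than in Total by 0.86 ± 0.17 (adjusted p = 0.00407). PSMD3 and PSMD11 were higher than Total in both pools (0.86 and 0.67 in LMW, 0.55 and 0.61 in HMW), but the second probe set of PSMD11 gave -0.22 in both. PSMD6 passed in none of these comparisons.

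Among the activators, PSME4, the large single-chain activator that opens the gate on its own, was higher in HMW than in LMW by 0.96 ± 0.27 (adjusted p = 0.0267) and higher in HMW than in Total by 0.59 ± 0.18 (adjusted p = 0.0359). It read 9.60, 9.57, 9.46 and 9.80 in Total, 8.56, 8.54, 9.75 and 10.09 in LMW, and 9.73, 10.42, 10.28 and 10.35 in HMW. As with PSMD1, the WT light arrays stood apart below the rest. A second PSME4 probe set gave 0.80 between the pools but -0.18 in HMW against Total. PSME3, the nuclear activator, and PSMF1, an inhibitor of the core, were higher in LMW than in Total, by 0.76 ± 0.23 (adjusted p = 0.0234) and 0.83 ± 0.21 (adjusted p = 0.0109), and did not pass in the other comparisons of preparations. PSME1, a subunit of the interferon-inducible cap, passed in none of them.

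Of the classes, only the 7 PSM-named assembly chaperones held no gene called higher than Total in either pool. Their values lay above 0 for 5 of 7 in LMW against Total and for 3 of 7 in HMW against Total. PSMG3, which with PSMG4 helps to build the alpha ring, was lower in HMW than in Total by -0.83 ± 0.24 (adjusted p = 0.0305) and lower in HMW than in LMW by -0.71 ± 0.13 (adjusted p = 0.00743). PSMG3 read 9.29, 9.17, 9.17 and 8.90 in Total, 10.08, 9.26, 8.54 and 8.17 in LMW, and 9.24, 8.43, 7.88 and 7.67 in HMW. In each condition the heavy array was the lowest, and the WT light arrays were above Total while the knockdown light arrays were below it. PSMG4 was lower by -0.53 ± 0.18 (adjusted p = 0.0478) and -0.61 ± 0.16 (adjusted p = 0.0211) in the same comparisons. PSMD9, a chaperone of the base, was lower in HMW than in LMW by -0.54 ± 0.12 (adjusted p = 0.0138). PSMG1, PSMG2, PSMD5 and PSMD10 passed in none of these comparisons.

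In Total RNA, the knockdown cells held more of many proteasome mRNAs, by small amounts. Of the 41 genes, 16 were higher in the knockdown (39.0%) and 2 were lower, where 20.7% of all genes were higher and 19.8% lower, with a median of 0.14 against 0.03 for all genes (limma, mock and 10 Gy pairs together, 1 residual degree of freedom). PSME3 was the highest, at 9.40 and 9.31 in WT mock and 10 Gy and at 10.20 and 9.92 in the knockdown (0.71 ± 0.10, adjusted p = 0.000456). PSMD4 read 10.99 and 10.92 in WT and 11.57 and 11.43 in the knockdown (0.54 ± 0.08, adjusted p = 0.000478). PSME1 read 10.85 and 10.96 in WT and 11.43 and 11.47 in the knockdown (0.54 ± 0.08, adjusted p = 0.000505). For these 3 genes both knockdown arrays lay above both WT arrays. The other 13 calls were PSMD5 (0.51), PSMD8 (0.48), PSMB10 (0.47), PSMB7 (0.45), PSMD6 (0.44), PSMC4 (0.39), PSMD12 (0.31), PSMD9 (0.26), PSMB6 (0.26), PSMA4 (0.23), PSMA5 (0.22), PSMB3 (0.21) and PSMB4 (0.18). PSMA1 fell by 0.33 and PSMC6 fell by 0.30. In simulated data 12.3% of the calls of this fit were false, the highest share of all comparisons (1.2% to 9.9% in the others). That share lies above the threshold set for the adjusted p, so some of the calls in Total may be false, and which ones was not tested. In bulk RNA, fewer cells with a transcript and less of it per cell cannot be told apart. Fitted on all 12 arrays at once, where the spread comes from the polysome arrays too, 0 genes of the 41 were called in either direction (67 higher and 173 lower over all genes), and without the intensity trend 9 were higher and 0 lower.

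Other probe sets of the same genes often read the knockdown differently. For 15 genes more than 1 probe set was at or above 6 on all 12 arrays, and in 5 of them a second set differed from the used one by over 0.5 in Total. These were PSME3 (a set at -0.96 beside 0.71), PSMD11 (-1.55 beside 0.05), PSMD12 (-1.01 beside 0.31), PSME4 (-1.04 beside 0.04) and PSMA2 (-0.80 beside -0.11). In each of the 5 that set lay lower in the knockdown than in WT, while the other 2 PSME3 sets gave 0.69 and 0.10. In HMW against LMW no gene of the 15 differed by over 0.5 between its sets, the largest gap being 0.33 for PSME3. For the knockdown within LMW, 7 of the 15 differed by over 0.5, and within HMW 7 did. Over the 15 genes the medians in Total were 0.05 for the used and -0.05 for the other sets, and over 2493 other genes they were 0.03 and 0.01.

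**Figure D4:**
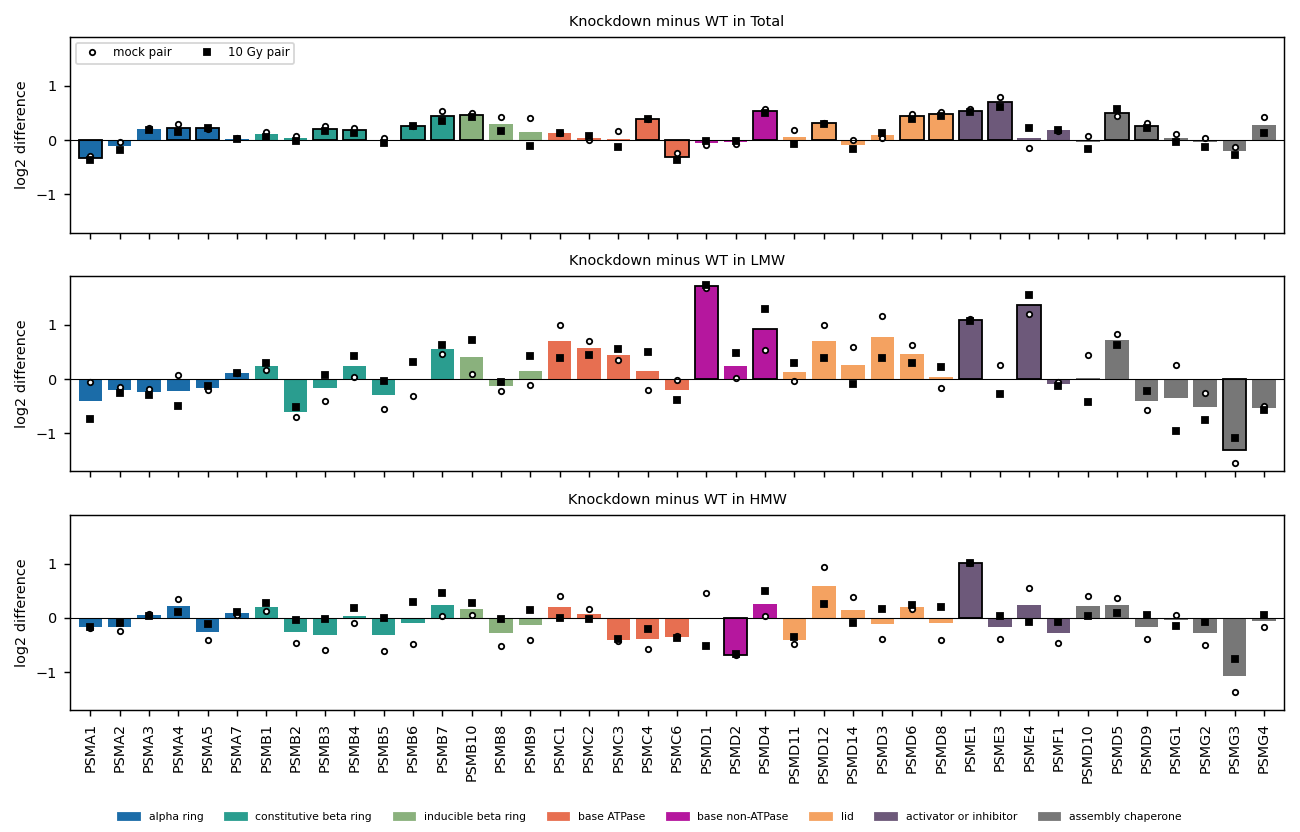
Knockdown minus WT (log2 intensity) in Total, LMW and HMW for the 41 genes, coloured by class; bars are means of the mock pair (circles) and the 10 Gy pair (squares), and outlined bars passed the test. The outlines number 18 in Total, 5 in LMW and 2 in HMW, and PSME1 is outlined in all 3 panels (0.54, 1.09 and 1.01).

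The knockdown was also compared within each polysome pool, where the standard errors of the 41 genes (0.17 to 0.47 in LMW and 0.17 to 0.42 in HMW) lay above those in Total (0.06 to 0.14). These errors follow genes of like intensity rather than a gene's own pairs. PSME1 in HMW, with pairs of 1.01 and 1.01, has an error of 0.30. In simulated data these fits called 13% of 2-fold differences in LMW and 8% in HMW. In LMW, 4 of 41 genes were higher in the knockdown and 1 lower, where 10.3% of all genes were higher and 5.1% lower. PSMD1 was higher by 1.71 ± 0.45 (adjusted p = 0.00289, 3.28-fold), PSME4 by 1.37 ± 0.47 (adjusted p = 0.0281), PSME1 by 1.09 ± 0.34 (adjusted p = 0.0131) and PSMD4 by 0.92 ± 0.29 (adjusted p = 0.0158). PSMG3 fell by 1.31 ± 0.47 (adjusted p = 0.0381). In Total the same probe sets of PSMD1 and PSME4 differed by -0.05 and 0.04, and neither passed. A second probe set gave 1.94 for PSMD1 in LMW but only 0.27 for PSME4. In HMW, PSME1 was higher by 1.01 ± 0.30 (adjusted p = 0.0139) and PSMD2 fell by 0.68 ± 0.24 (adjusted p = 0.0441), where 5.82% of all genes were higher and 4.09% lower. PSME1 read 10.51 and 10.82 in WT HMW and 11.52 and 11.83 in knockdown HMW, and 10.61 and 10.86 against 11.72 and 11.93 in LMW. Its knockdown arrays were above its WT arrays in all 3 preparations. The PSMD2 heavy arrays read 12.56 and 12.41 in WT and 11.87 and 11.74 in the knockdown, and its Total arrays lay between 11.31 and 11.40. Neither HMW call held with eBayes without a trend, and PSMD1 in LMW was the only pool call that held under every alternative run.

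The distance between heavy and light polysomes differed between the genotypes for 6 genes, with PSMD1 and PSME4 showing the largest differences. In HMW minus LMW, 6 of 41 genes had a lower value in the knockdown than in WT (14.6%) and 0 a higher one, where 10.5% of all genes were lower and 5.33% higher, so the count as such lies near that of all genes. PSMD1 exceeded its light-pool level in the heavy pool by 1.97 and 2.90 in WT mock and 10 Gy, and by 0.75 and 0.65 in the knockdown (difference -1.74 ± 0.25, adjusted p = 3.17e-05). PSME4 did so by 1.18 and 1.88 in WT and by 0.53 and 0.26 in the knockdown (-1.14 ± 0.27, adjusted p = 0.00475). For both, HMW was above LMW in all 4 conditions, by less in the knockdown. PSMD2 changed sides, from 0.27 and 0.64 in WT to -0.44 and -0.51 in the knockdown (-0.93 ± 0.17, adjusted p = 0.000431). So did PSMC3, from 0.46 and 0.57 to -0.33 and -0.36 (-0.86 ± 0.21, adjusted p = 0.00606), and PSMD4, from 0.19 and 0.47 to -0.31 and -0.33 (-0.65 ± 0.18, adjusted p = 0.0137). PSMD3 of the lid read 0.36 and -0.10 in WT and -1.20 and -0.33 in the knockdown (-0.89 ± 0.30, adjusted p = 0.0409). By class, the 6 were the 3 PSM-named base subunits without ATPase activity, 1 of 5 ATPases, 1 of 6 lid subunits and 1 of 4 activators or inhibitors, and no test compared the classes. PSMC2 (-0.50, adjusted p = 0.0656), PSMC4 (-0.54, adjusted p = 0.0754) and PSMD11 (-0.54, adjusted p = 0.0784) did not pass. The calls of PSMD1 and PSME4 held under every alternative run, and their second probe sets gave -2.08 and -0.99. The other 4 calls were lost without a trend (adjusted p = 0.0516 for PSMD2, 0.0595 for PSMC3, 0.105 for PSMD3 and 0.140 for PSMD4). PSMD4 read 0.40 where its sets with an _x_at or _s_at suffix (probes shared with other transcripts or genes) were left out, which left a set at or above 6 on 4 arrays only.

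**Figure D5:**
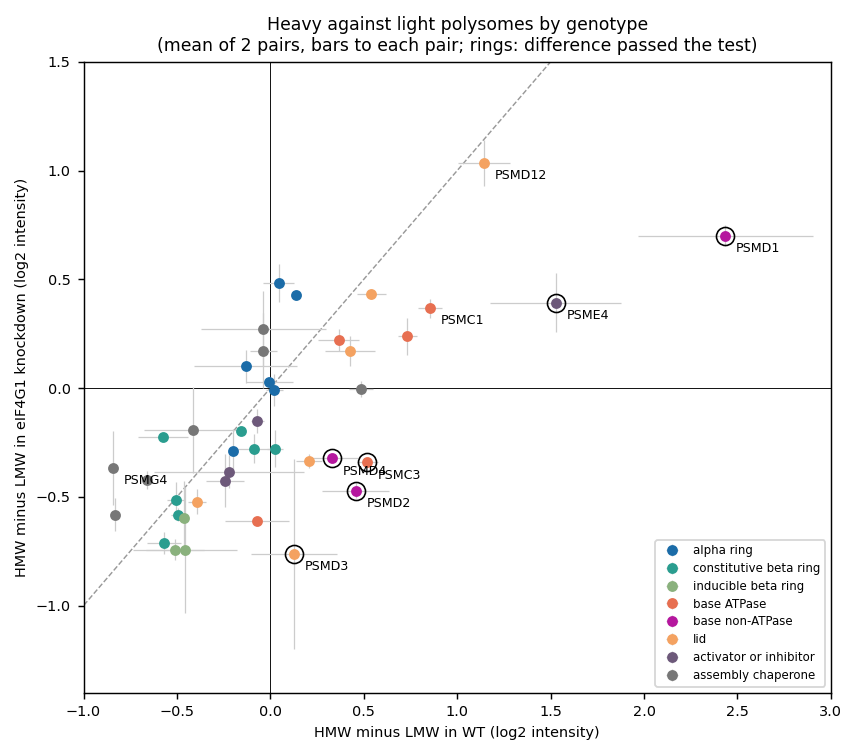
HMW minus LMW (log2 intensity) in WT (horizontal axis) and in the knockdown (vertical axis) for the 41 genes; points are means of the mock and 10 Gy pairs, bars reach to each pair, rings mark the 6 genes whose difference passed the test, and the dashed line marks equal values. All 6 ringed genes lie below the line, with PSMD1 at 2.44 and 0.70 farthest from it.

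Relative to Total, the heavy pool gave no call for the knockdown. In HMW minus Total, 0 of 41 genes passed by limma in either direction (lowest adjusted p = 0.245), where 3.97% of all genes were higher and 0.492% lower. At an unadjusted p under 0.05, 4 were lower (9.76%) and 0 higher, where 4.67% of all genes were lower and 10.1% higher (14.8% in either direction). The median was -0.25 against -0.02 for all genes, and 30 of the 41 values lay below 0, as did 5272 of all 10157 genes. By pair, the median of the 41 was -0.45 in mock and -0.08 after 10 Gy, against -0.04 and -0.06 for all genes. The shift thus lay mostly in the mock pair. Without a trend the counts were also 0 and 0. In simulated data this fit called 20% of 2-fold differences, so missing calls do not show missing differences. The lowest value was that of PSME3, -0.88, and the highest that of PSME1, 0.47.

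After 10 Gy no proteasome gene was called in any preparation by limma. In Total, 0 of 41 passed (lowest adjusted p = 0.201; 13 of all genes, 0.128%, were higher and 5, 0.0492%, were lower), and 5 (12.2%) had an unadjusted p under 0.05, a share near the 12.8% of all genes. These 5 values lay below 0: PSMA3 (-0.26), PSMA7 (-0.17), PSMA1 (-0.19), PSMG1 (-0.28) and PSMC3 (-0.24), the last with -0.10 in WT and -0.38 in the knockdown. Of all genes, 9.13% were lower and 3.72% higher at an unadjusted p under 0.05. The median of the 41 in Total was -0.10 against -0.03 for all genes, and 35 of 41 were below 0, as were 5934 of all 10157 genes. By pair, the median of the 41 was -0.06 in WT and -0.14 in the knockdown, against -0.02 and -0.04 for all genes. In HMW, LMW and HMW minus Total, 0 of 41 passed and 0 had an unadjusted p under 0.05 (8.39%, 7.86% and 7.63% of all genes did). By the adjusted p, 0.463%, 0.345% and 0.276% of all genes were higher there and 0.00985%, 0.0295% and 0% lower. Fitted without a trend, the counts of the 41 were 0 as well. In simulated data, 22%, 8% and 17% of 2-fold differences were called in HMW, LMW and HMW minus Total, against 100% in Total. A missing call outside Total therefore does not show a missing response. The difference between the genotypes in this response rests on 1 array against 1 and was not tested. At 2-fold or more, PSMG1 was the only one of the 41 in any preparation: in LMW its response to 10 Gy was 0.48 in WT and -0.74 in the knockdown, a difference of -1.22. Of all genes, 17.3% lay at or past 2-fold in that direction in LMW, 15.2% in HMW and 0.797% in Total, and 4.07%, 2.66% and 0.0689% in the other direction.

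Partners of the proteasome outside the member rule were taken from a list of 37 genes, of which 33 were kept, and its counts are to be read against the shares of all genes given above for each comparison. In LMW against Total 10 of 33 were higher, led by ADRM1 (1.43), a ubiquitin receptor of the base, and UBQLN4 (1.28), a shuttle for ubiquitinated proteins. There 8 were lower, so that both counts lay near the 28.5% and 28.1% of all genes, with UBA6 (-1.60), an E1 enzyme, and TPP2 (-1.57), a downstream peptidase, at the bottom. In HMW against Total 13 were higher and 2 lower, beside 17.4% and 18.6% of all genes. UBA1, the main ubiquitin-activating enzyme (1.96), and BAG6, a chaperone of misplaced proteins (1.74), were highest, and ZFAND2A (-1.47) and SEM1, the small lid subunit (-1.05), were lower. In HMW against LMW 10 were higher and 4 lower (19.6% and 21.1% of all genes), between 1.89 for ECPAS, a scaffold that binds proteasomes, and -0.57 for PITHD1. The knockdown left 5 higher and 5 lower in Total (20.7% and 19.8% of all genes), with NGLY1 at 0.63 and NPLOC4 at -0.57 at the ends. In LMW 8 were higher in the knockdown (10.3% of all genes), led by ECPAS (1.62) and UBA1 (1.48), and POMP, the chaperone of the beta ring, was lower (-0.63). NFE2L1, the regulator of proteasome genes, was lower in the knockdown in Total (-0.36, adjusted p = 0.0161) and higher in LMW (1.47, adjusted p = 0.0156) and in HMW (1.22, adjusted p = 0.0385). It was the only partner to pass in HMW and in HMW minus Total (1.58), a difference that contains its lower level in Total. In HMW minus LMW 2 were higher in the knockdown, NFE2L2 (1.10) and POMP (0.43), and 7 were lower (5.33% and 10.5% of all genes), with UBA1 (-1.74) and BAG6 (-1.70) lowest. After 10 Gy, 0 of 33 passed in the preparations or in HMW minus Total.

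Of the 8 symbols that name no subunit, 3 were kept. PSMA3-AS1, an antisense transcript of PSMA3, was higher in Total (6.86 to 7.45) than on any polysome array (3.65 to 5.57). It passed the filter through its 4 Total arrays alone and was below 6 on all 8 polysome arrays, so neither a fold nor a test against Total is given. PSMC3IP, a partner of recombination proteins, was lower in the knockdown in Total (-0.53 ± 0.16, adjusted p = 0.0247). PSME3IP1, which binds PSME3, was kept and did not pass in the comparisons of preparations or in Total under the knockdown. PSMB8-AS1, PSMD14-DT, PSMD6-AS2, PSMD7-DT and PSMG3-AS1 were below the filter.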

How the data were processed

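Per the submitters' processing notes the deposited values, probe set intensities on a linear scale, were made by the authors with RMA (background correction, normalisation between arrays, summary of probes). The version of RMA is not stated here, nor which arrays were normalised jointly. Medians of the 12 arrays lay between 22.6 and 24.4, and the number of arrays limits the precision. No batch or scan label was used.

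Intensities were turned to log2. Probe sets with 1 symbol in the array's annotation (41097 of 54675; 1801 had several and 11777 were not listed) were reduced to the brightest per gene, and genes at 6 or more on at least 4 arrays were kept. limma 3.58.1 in R 4.3.3 was fitted on all 10157 genes (eBayes with a trend, Benjamini-Hochberg adjustment at 0.05, two-sided), over 12 comparisons. Preparations were compared with the condition as a block (3 residual degrees of freedom), since each condition gave 1 array of each preparation, and the knockdown and 10 Gy were fitted together on 4 values (1 residual degree of freedom). Differences are on the log2 scale, ± the standard error. The scripts were tested on simulated data. All members may be named, and of the partner list the 2 highest and 2 lowest past the threshold, with NFE2L1 in Total and LMW named after its values were seen. Members and lists were chosen with earlier results of these data known. Protein sequences and lengths were not used here.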

Additional observations from a re-analysis of the deposited data

Results flagged for a closer look

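The genotypes differed by the test in HMW minus LMW (knockdown minus WT, limma) for 6 genes: PSMD1 (-1.74), PSME4 (-1.14), PSMD2 (-0.93), PSMD3 (-0.89), PSMC3 (-0.86) and PSMD4 (-0.65). The calls of PSMD1 and PSME4 held under every alternative run, and the other 4 were lost without a trend (adjusted p from 0.0516 for PSMD2 to 0.140 for PSMD4).

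In 7 further cases both WT pairs lay on one side of 0 and both knockdown pairs on the other. For those in LMW against Total the difference was not tested, and for those in the other comparisons it was tested and did not pass. How many of all genes split in this way was not counted, so the number of cases does not set the members apart. In LMW against Total the difference knockdown minus WT was 1.76 for PSMD1, 1.33 for PSME4 and 0.55 for PSME1, which went from below 0 in WT to above 0 in the knockdown, and -1.12 for PSMG3 and -0.81 for PSMG4, which went the other way. It was 0.47 for PSME1 in HMW against Total, where 0 of 41 genes passed by limma for the knockdown (lowest adjusted p = 0.245). For PSMD11 it was -0.54 in HMW against LMW, which did not pass by limma in HMW minus LMW (adjusted p = 0.0784).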

How the results depend on the processing

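Of 492 values of single genes over the 12 comparisons, 491 kept their side of the threshold with the filter at 7, 480 without a filter and 468 without a trend. These settings do not alter a gene's mean difference, so its direction could not change. Most of the 492 values were not calls to begin with. The changes were 12 lost calls without a filter and 24 lost calls without a trend. The 1 array per condition and preparation, the 1 residual degree of freedom behind the knockdown and 10 Gy fits, and the choice of probe set limit these results. In what follows, pairs of counts are higher and lower. Shares of all genes are not given beside them, so these counts do not tell a change in the members from a change over all genes. Without sets with an _x_at or _s_at suffix, which left 29 genes, the counts were 3 and 7 in HMW against LMW, 9 and 1 in HMW against Total, 13 higher in LMW against Total, 8 and 4 for the knockdown in Total, 2 lower in HMW, 2 higher in LMW and 2 lower in HMW minus LMW. With the median of a gene's sets (39 genes kept), the lower counts were 1 in HMW against Total, 3 in LMW against Total, and for the knockdown 8 in Total and 2 in LMW. The condition is the replicate block here, and without it HMW against LMW gave 0 and 0 and HMW against Total 1 lower. Without the filter, 1 was lower in HMW against Total, 0 lower for the knockdown in HMW, and 2 and 0 in LMW. Without a trend the knockdown gave 9 and 0 in Total, 0 and 0 in HMW, 2 higher in LMW and 2 lower in HMW minus LMW. All 12 arrays in 1 fit gave 5 lower in LMW against Total, and for the knockdown 0 and 0 in Total, 2 lower in HMW, and 7 and 2 in LMW. A loess correction for intensity left 0 lower for the knockdown in HMW. Leaving out 1 condition gave 1 to 6 higher and 4 to 12 lower in HMW against LMW, 3 to 21 and 0 to 2 in HMW against Total, and 13 to 19 and 1 to 2 in LMW against Total.

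Reversals came only with other probe sets. With the median of sets, HMW against Total was -0.43 for PSMB7 and -0.18 for PSME4, LMW against Total -0.12 for PSMA5 and -0.31 for PSMB7, and the knockdown in Total -0.46 for PSMA5, -0.60 for PSMC2, -0.75 for PSMD11, -0.35 for PSMD12 and -1.04 for PSME4. The second sets of PSMA5 and PSMB7 were below 6 on all arrays. Without the suffixed sets, PSMD11 was -0.22 in both pools against Total and, for the knockdown, -1.55 in Total and -1.46 in LMW, PSMC2 was -0.60 in Total, and PSMD4 had -0.034 in Total and -0.035 in LMW, with 0.40 in HMW minus LMW. The cause of the other changes was not tested.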
